A study of Mus musculus with 12 samples.

Results

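Myocardin and its relatives are a small family of coactivators that work through serum response factor (SRF), and 4 of the 24562 genes listed in the deposited count tables were described here: Myocd, which encodes myocardin, Srf, and Mkl1 and Mkl2, which encode the myocardin-related transcription factors MRTF-A and MRTF-B. They were found by gene symbol. Myocd was chosen by its measured level, which was higher in meiotically competent than in non-competent oocytes, so its values in that contrast are a description and carry no test. Srf, Mkl1 and Mkl2 were taken because they belong to the same complex, and were tested in every comparison. The data are RNA-Seq libraries of 12 pools of denuded germinal vesicle-stage oocytes, collected from antral follicles of unstimulated ovaries of CD-1 mice, an outbred stock. There were 3 pools in each of 4 cohorts: PND13, PND16 Small and PND16 Large, which are mice of the same age divided by body weight, and PND40, where PND is the postnatal day. In the study's terms PND16 Large and PND40 oocytes are meiotically competent (6 pools), and PND13 and PND16 Small oocytes are non-competent (6 pools). Competence here means that oocytes can resume meiosis and go on to metaphase II. For the PND16 groups the study did not show its competence data, because few animals were used. No pool was treated, and all came from the same outbred stock. Per the study, oocytes of 3 mice per condition went into 3 independent pools. Whether each pool held the oocytes of a single mouse is not stated, so the p-values below measure the spread between these pools only.

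SRF is a MADS-box transcription factor that binds a short DNA element called the CArG box. On its own it is a weak activator, and it works with partners of 2 kinds. The ternary complex factors (Elk1, Elk3 and Elk4) couple it to growth factor signalling and to immediate-early genes such as Fos and Egr1. Myocardin and the MRTFs couple it to genes of the actin cytoskeleton and of muscle. MRTFs are held in the cytoplasm by monomeric actin and enter the nucleus when actin polymerises, whereas myocardin stays in the nucleus and is known mainly from cardiac and smooth muscle cells.

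The 4 genes lie on different chromosomes of GRCm38.p6: Myocd at chr11:65173608-65269989, Srf at chr17:46546838-46558267, Mkl1 at chr15:81012281-81190736 and Mkl2 at chr16:13256056-13417529. The counts were summed over each gene's exons and do not separate its transcripts. The Mkl1 locus shares 10 bases with the end of Sgsm3, the only overlapping gene in the count tables with more than 2 counts in all. Srf is itself known as a CArG-box gene, and its promoter is shown because it holds the letters to which the protein of the same gene binds. A CArG box was taken as CC, 6 bases that are each A or T, and GG, which reads as a CArG box on either strand, and it was looked for in windows from 250 bases before to 50 bases after each start site in RefSeq's GRCm38.p6 table. The 250 bases before the Srf start site (chr17:46556163-46556412, minus strand), 5′ to 3′ with both CArG boxes in capitals, are
Srf: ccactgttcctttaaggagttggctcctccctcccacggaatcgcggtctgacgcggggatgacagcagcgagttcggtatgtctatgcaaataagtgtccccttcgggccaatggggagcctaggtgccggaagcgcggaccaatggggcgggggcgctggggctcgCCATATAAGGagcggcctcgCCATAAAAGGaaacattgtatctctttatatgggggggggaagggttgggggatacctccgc
The boxes begin 82 and 62 bases before the start site. No box was found in the 2 windows of Mkl1 or the 3 windows of Mkl2. Of all 27025 genes with a window, 488 (1.81%) had at least 1 box.

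Myocd was read at a low level in PND13 and PND16 Small oocytes and at a several-fold higher level in PND16 Large and PND40 oocytes. The 3 PND13 pools had 3.01, 1.99 and 1.92 CPM (read counts relative to a pool's total, with TMM scaling), and the 3 PND16 Small pools had 1.12, 2.94 and 2.85. The 3 PND16 Large pools had 18.5, 11.8 and 13.7 CPM, and the 3 PND40 pools had 36.6, 20.6 and 12.7. No competent pool fell within the range of the non-competent pools, and the lowest competent pool (11.8 CPM) was well above the highest non-competent pool (3.01 CPM). In reads, this was 23 to 63 counts in a non-competent pool and 298 to 853 in a competent pool, so the low values rest on few reads. The mean level was 2.30 ± 0.754 CPM (SD, n = 6) in non-competent and 19.0 ± 9.30 CPM (SD, n = 6) in competent oocytes, a log2 fold change of 3.04. Between single cohorts the log2 fold change was 2.67 for PND16 Large vs PND13, 2.67 for PND16 Large vs PND16 Small, 3.34 for PND40 vs PND13 and 3.34 for PND40 vs PND16 Small. These values chose the gene, and so they are given without a test. In bulk RNA of pooled oocytes, a change in RNA per cell and a change in the number of cells that carry the RNA cannot be told apart.

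**Figure D1:**
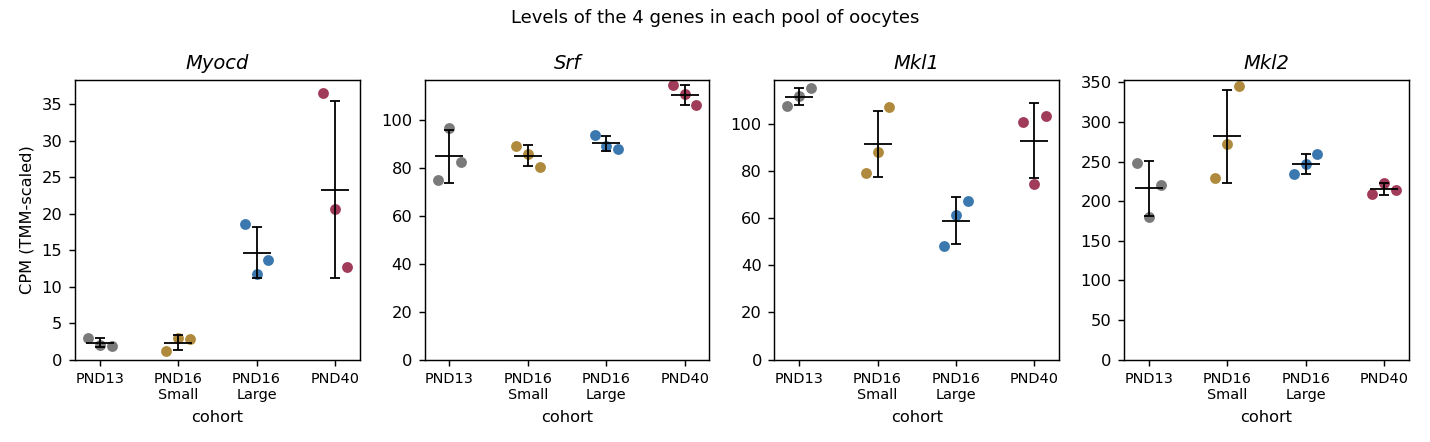
Level of each gene (CPM, linear axis from 0) in the 3 pools of each cohort, with each pool as a point and the cohort mean and SD as black bars. Myocd is between 1.12 and 3.01 CPM in the 6 non-competent pools and between 11.8 and 36.6 CPM in the 6 competent pools, and all 3 PND16 Large pools are lowest for Mkl1.

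The 2 comparisons within a competence group did not choose Myocd and were tested. PND40 oocytes had a mean of 23.3 ± 12.2 CPM (SD, n = 3) and PND16 Large oocytes 14.6 ± 3.49 CPM (SD, n = 3). The 2 cohorts overlapped, since PND40 replicate 3 (12.7 CPM) lay within the range of PND16 Large. The log2 fold change was 0.67 (SE 0.39, adjusted p = 0.344 in edgeR's quasi-likelihood test), which did not pass the threshold. PND40 replicate 1 carried much of this difference, and without it the log2 fold change was 0.18. PND16 Small and PND13 oocytes had means of 2.30 ± 1.03 and 2.31 ± 0.608 CPM (SD, n = 3 each), with a log2 fold change of -0.004 (SE 0.44, adjusted p = 0.997). The order of the cohorts was therefore PND40, PND16 Large, PND13 and PND16 Small, where neither the first pair nor the last pair differed beyond the spread between pools.

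Srf, the DNA-binding partner, was read at a similar level in all cohorts and was highest in PND40. Its level was 75.1, 96.7 and 82.5 CPM in PND13 and 88.9, 85.8 and 80.4 CPM in PND16 Small. It was 93.9, 89.1 and 87.7 CPM in PND16 Large and 114, 111 and 106 CPM in PND40. The PND40 pools lay above every other pool, and the other 3 cohorts overlapped. A gene was called different at an adjusted p of at most 0.05 and a change of at least 1.5-fold, and no comparison of Srf reached that fold. In competent vs non-competent oocytes the log2 fold change was 0.24 (SE 0.085, adjusted p = 0.0425). PND40 was above PND13 by 0.38 (SE 0.091, adjusted p = 0.00599) and above PND16 Small by 0.38 (SE 0.091, adjusted p = 0.00724) on the log2 scale, both small changes that passed the p threshold alone. The 3 pools high in granulosa markers were PND13 replicates 1 and 3 and PND16 Small replicate 2. Without them the log2 fold change was 0.18 (SE 0.11, adjusted p = 0.265) in competent vs non-competent oocytes, which did not pass. PND13 then keeps only replicate 2, and PND40 vs PND13 gave 0.19, given without a test. In the same setting PND40 vs PND16 Small gave 0.39 (SE 0.084, adjusted p = 0.00655). Against PND16 Large the log2 fold change of PND40 was 0.29 (SE 0.091, adjusted p = 0.0708) over all pools. Without those 3 pools it was 0.29 (SE 0.074, adjusted p = 0.0393), still under 1.5-fold. The 3 lower cohorts did not differ beyond their spread, with adjusted p-values of 0.500 for PND16 Large vs PND13, 0.585 for PND16 Large vs PND16 Small and 0.987 for PND16 Small vs PND13.

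Mkl1 was lowest in PND16 Large oocytes. Its level was 108, 112 and 115 CPM in PND13 and 79.3, 88.3 and 107 CPM in PND16 Small. It was 48.1, 61.5 and 67.5 CPM in PND16 Large and 101, 74.5 and 103 CPM in PND40. Each PND16 Large pool was below each of the other 9 pools, and PND40 overlapped PND16 Small. PND16 Large was lower than PND13 by 1.89-fold (log2 fold change -0.92, SE 0.15, adjusted p = 0.00116) and lower than PND16 Small by 1.55-fold (log2 fold change -0.63, SE 0.15, adjusted p = 0.0173). PND40 was higher than PND16 Large by 1.57-fold (log2 fold change 0.65, SE 0.15, adjusted p = 0.0205), and PND40 and PND16 Small had a log2 fold change of 0.02 (SE 0.15, adjusted p = 0.926). The 2 competent cohorts thus stood at different levels, and over competent vs non-competent oocytes the log2 fold change was -0.42 (SE 0.17, adjusted p = 0.0746). The call against PND13 held without any 1 pool. The call for PND40 vs PND16 Large was lost without PND16 Large replicate 1 (adjusted p = 0.0853) or 2 (0.0570) and without PND40 replicate 1 (0.0861) or 3 (0.0919), and the call against PND16 Small was lost without PND16 Large replicate 1 (0.0853) or 2 (0.0512) and without PND16 Small replicate 3 (0.0616). The log2 fold change kept its sign each time.

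Mkl2 was not called in any comparison. Its level was 248, 180 and 221 CPM in PND13 and 229, 272 and 345 CPM in PND16 Small. It was 234, 246 and 259 CPM in PND16 Large and 209, 223 and 215 CPM in PND40. The widest spread was within PND16 Small, and its replicate 3 was the highest pool. The log2 fold change was -0.11 (SE 0.12, adjusted p = 0.534) in competent vs non-competent oocytes. PND40 was below PND16 Small by a log2 fold change of -0.39 (SE 0.14, adjusted p = 0.0465), without overlap and under 1.5-fold. PND16 Small vs PND13 gave 0.38 (SE 0.14, adjusted p = 0.148), and the other 4 pairs gave adjusted p-values from 0.328 to 0.984.

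**Figure D2:**
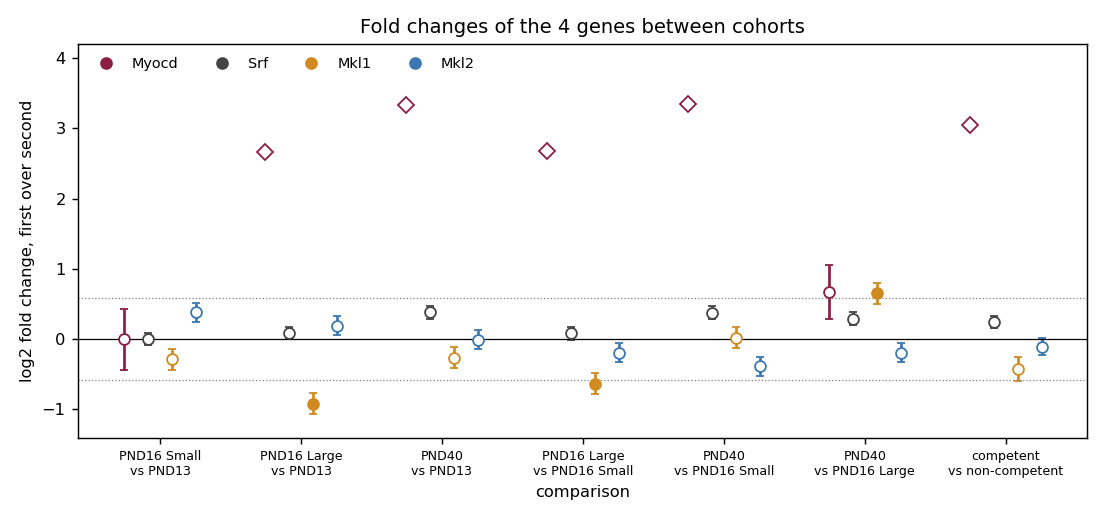
Log2 fold change of each gene in the 6 pairs of cohorts and in competent vs non-competent oocytes, with the standard error as bars. Filled points were called, open points were not, open diamonds are Myocd values given without a test or error, and dotted lines mark 1.5-fold. Mkl1 has the 3 filled points.

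These calls stand against how often any gene was called. Of 13943 genes tested, 3.78% were called higher and 11.2% lower in competent vs non-competent oocytes, where none of Srf, Mkl1 and Mkl2 was called. In PND16 Large vs PND13, 3.52% were called higher and 9.8% lower, and in PND16 Large vs PND16 Small 1.43% higher and 4.76% lower. Mkl1 was called lower in both. In PND40 vs PND16 Large, where Mkl1 was called higher, 2.34% were called higher and 1.32% lower. The shares were 6.31% and 12.6% in PND40 vs PND13, and 6.89% and 10.3% in PND40 vs PND16 Small, with no call among the 3 genes. In PND16 Small vs PND13 only 0.179% of genes were called higher and 0.194% lower, and none of the 4 genes was among them. In that last comparison 51.9% of the called genes were lower, and 76.0% when pools were scaled by total counts alone, which moved the median of all genes to -0.12.

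Per kilobase of exon, Myocd made up a small part of the RNA of the 3 SRF coactivators in every cohort. Levels were divided by the merged exon length in GENCODE M21, which is 6424 bases for Myocd, 6114 for Mkl1 and 8990 for Mkl2. As a share of the summed CPM per kb of the 3 genes, Myocd took 0.838% ± 0.173 in PND13 and 0.750% ± 0.283 in PND16 Small (SD, n = 3 each). The share was 5.85% ± 1.73 in PND16 Large and 8.38% ± 3.97 in PND40 (SD, n = 3 each), and the highest was 12.5% in PND40 replicate 1. Mkl2 held the largest share in each of the 12 pools, from 51.1% to 70.8%. Mkl1 held 43.0% ± 4.46 in PND13, 32.2% ± 1.27 in PND16 Small, 24.4% ± 2.66 in PND16 Large and 35.4% ± 4.67 in PND40 (SD, n = 3 each). The sum of the 3 coactivators was 42.7 ± 3.65, 46.7 ± 8.96, 39.4 ± 2.59 and 42.8 ± 2.59 CPM per kb in the 4 cohorts in the same order. These sums overlapped. Srf, with 2893 bases of exon, was read at 29.3 ± 3.79, 29.4 ± 1.49, 31.2 ± 1.12 and 38.2 ± 1.46 CPM per kb. The shares of Myocd follow from the values that chose it and were not tested.

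**Figure D3:**
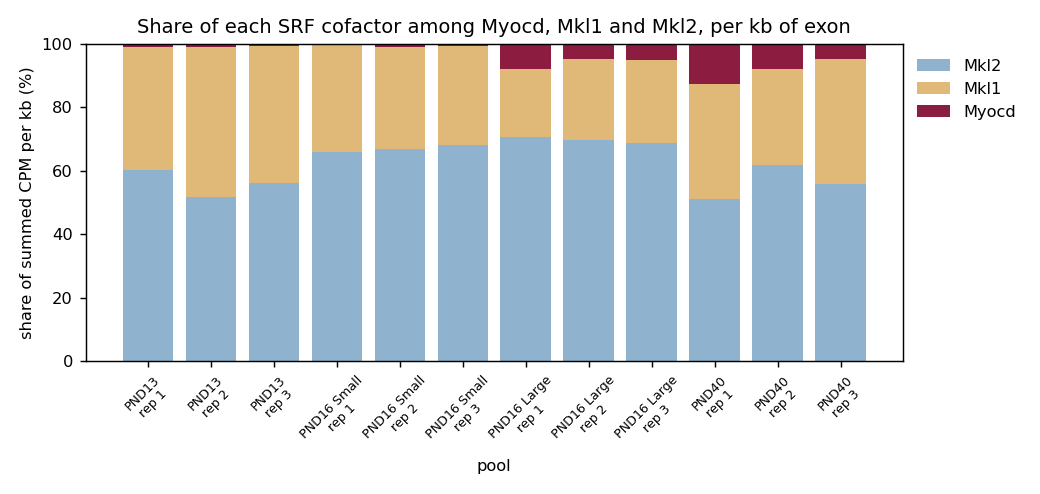
Share of Myocd, Mkl1 and Mkl2 in their summed CPM per kb of exon (percent, stacked to 100) in each of the 12 pools. Myocd is at most 1.03% in the 6 non-competent pools and between 4.63% and 12.5% in the 6 competent pools.

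The pools were oocytes by their markers, and granulosa markers were read at a low and uneven level. All 12 oocyte markers were read in every pool, with a summed level of 15708 to 20236 CPM. The 12 granulosa and cumulus markers summed to 516 and 601 CPM in PND13 replicates 1 and 3 and to 672 CPM in PND16 Small replicate 2, and to 111 to 211 CPM in the other 9 pools. Nr5a2 (87.9 to 134 CPM) and Cyp19a1 (12.7 to 24.3 CPM) gave most of each of those 9 sums. Each other marker was higher in the 3 pools with high sums than in any other pool, such as Inha (97.1 to 143 against 2.34 to 20.7 CPM). All 3 pools with the high sums were non-competent. Theca markers summed to 17.9 to 82.0 CPM in non-competent and to at most 14.2 CPM in competent pools, with Insl3 at 0 in all 6 non-competent pools. Hsd3b1 (1.37 to 50.1 CPM) and Ptch1 (8.96 to 28.4 CPM) gave most of the non-competent sums, and Cyp17a1 was at most 0.246 CPM in any pool. The means of the other theca markers were higher in competent pools, as for Cyp11a1 (3.75 against 2.32 CPM). Endothelial markers summed to 85.2 to 107 CPM, with Emcn at 0 in all 12 pools. Pecam1 (52.0 to 64.6 CPM) and Tek (25.0 to 43.1 CPM) gave most of these sums, and Cdh5 was at most 0.143 CPM. As Myocd is best known from smooth muscle, the 8 smooth muscle markers were read beside it. They summed to 165 to 272 CPM in non-competent and 207 to 250 CPM in competent pools, ranges that overlapped. Myh11, smooth muscle myosin heavy chain, gave 149 to 256 CPM of these sums, while Lmod1 was at 0 in all 12 pools, Tagln was at most 0.631 CPM and Acta2 at most 2.67 CPM. Leaving out the 3 pools high in granulosa markers was a setting chosen after seeing the data. Myocd then had a log2 fold change of 3.27 in competent vs non-competent oocytes, given without a test since its level chose it. PND13 then keeps only replicate 2, and Mkl1 had a log2 fold change of -0.92 in PND16 Large vs PND13, given without a test.

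Among regulators and partner factors of SRF, Mef2a was clearly lower in competent oocytes and most others were not called. Of the 31 genes of the list 24 passed the filter on low counts, and 1 was called higher and 5 lower, where lower calls also outnumbered higher calls over all genes (11.2% and 3.78%). Their median log2 fold change was -0.26, against -0.005 for all genes tested. Mef2a encodes another MADS-box factor. It had 25.1, 28.7 and 32.9 CPM (lowest, median and highest) in non-competent and 9.05, 12.4 and 16.0 CPM in competent pools. These groups did not overlap, and Mef2a fell by 1.23 on the log2 scale (SE 0.13, adjusted p = 2.68e-05). Its relatives Mef2c and Mef2d had log2 fold changes of -0.66 (adjusted p = 0.405) and 0.13 (adjusted p = 0.572), and Mef2b had no count in any pool. Elk3, a ternary complex factor that can repress SRF targets, fell by 0.61 (SE 0.19, adjusted p = 0.0289), while Elk1 (0.12, adjusted p = 0.519) and Elk4 (-0.10, adjusted p = 0.471) did not pass. Scai, a suppressor of MRTF activity, had a log2 fold change of -0.31 (adjusted p = 0.0425) under the 1.5-fold threshold.

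Ets1, Foxo4 and Gata6 were also called lower and Notch1 higher, all with overlapping groups. Foxo4, known to restrain myocardin activity in smooth muscle, fell by 0.76 (SE 0.28, adjusted p = 0.04997). Ets1 fell by 0.96 (SE 0.30, adjusted p = 0.0259) at a level of 0.614 to 2.77 CPM. Notch1, a receptor whose signalling can counter myocardin, rose by 1.02 (SE 0.30, adjusted p = 0.0189), with 4.66 to 15.9 CPM in competent and 2.80 to 5.92 CPM in non-competent pools. Gata6, a GATA factor also used by granulosa cells, had 13.9 and 12.6 CPM in PND13 replicates 1 and 3 and 12.8 CPM in PND16 Small replicate 2, the pools with the high granulosa sums, and 2.89 to 10.2 CPM in all others. It fell by 0.99 (SE 0.33, adjusted p = 0.0328). Without those 3 pools, which are 3 of the 6 non-competent ones, the count was 0 higher and 1 lower. Gata6 then had a log2 fold change of -0.29 (SE 0.34, adjusted p = 0.600). Elk3 had -0.57 (SE 0.21, adjusted p = 0.0769), Ets1 -0.98 (SE 0.37, adjusted p = 0.0912) and Notch1 1.04 (SE 0.38, adjusted p = 0.0804). The fold changes of Elk3, Ets1 and Notch1 stayed near those over all pools, while their standard errors were larger. The part of granulosa RNA in the other calls was not tested. The count of 5 lower fell to between 1 and 3 when any 1 of 9 pools was left out, all but PND13 replicate 2 and PND16 Small replicates 1 and 3. It was 1 without PND13 replicate 1, 2 without PND13 replicate 3, PND16 Large replicate 1 or 3 or PND40 replicate 3, and 3 without PND16 Large replicate 2, PND40 replicate 1 or 2 or PND16 Small replicate 2. The 1 higher, Notch1, was lost without PND40 replicate 1 (adjusted p = 0.0515), and the count was 2 without PND13 replicate 2.

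In PND40 vs PND16 Large oocytes 3 of the 24 genes (12.5%) were called higher and 0 lower, beside 2.34% higher and 1.32% lower over all genes. Csrp1, a LIM protein that links SRF to GATA factors, had 29.8, 24.9 and 25.6 CPM in PND40 and 14.0, 10.3 and 12.6 CPM in PND16 Large. It rose by 1.12 (SE 0.20, adjusted p = 0.00585). Notch1 had 15.9, 11.5 and 12.8 CPM against 6.75, 6.20 and 4.66 CPM and rose by 1.19 (SE 0.26, adjusted p = 0.0176), and Mef2d rose by 0.71 (SE 0.11, adjusted p = 0.00321). The groups did not overlap for any of the 3. The call of Notch1 was lost without PND16 Large replicate 2 (adjusted p = 0.0560) or 3 (0.0918) and without PND40 replicate 1 (0.0843) or 3 (0.0562).

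**Figure D4:**
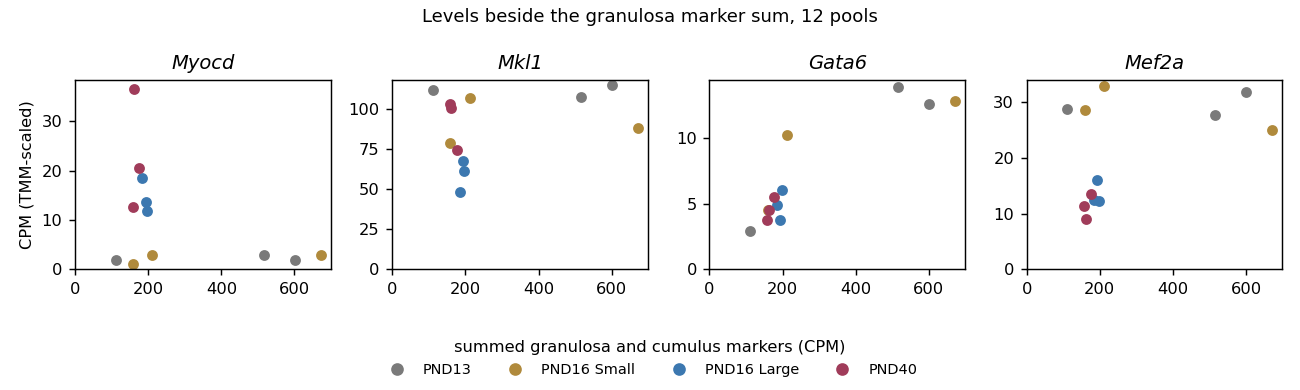
Level of 4 genes (CPM, linear axes from 0) against the summed CPM of the granulosa and cumulus markers in each of the 12 pools, coloured by cohort. Gata6 is high in the pools with sums of 516 to 672 CPM. Competent and non-competent pools do not overlap for Mef2a, or for Myocd, which was chosen by its level in these pools. The part of granulosa RNA was not tested.

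Among the cytoskeletal and muscle genes known as SRF targets, Actb, Myh10, Coro1c and Tln1 were lower in competent oocytes and the genes that mark smooth muscle were not called. Of 44 genes 32 passed the filter, and 0 were called higher and 4 lower (12.5%) in competent vs non-competent oocytes, near the shares of all genes (3.78% higher and 11.2% lower), with a median log2 fold change of -0.17. Actb, cytoplasmic beta-actin, had 122, 153 and 175 CPM (lowest, median and highest) in non-competent and 66.7, 96.4 and 118 CPM in competent pools. It fell by 0.66 (SE 0.15, adjusted p = 0.00540), with no overlap. Myh10, a non-muscle myosin heavy chain, fell by 0.96 (SE 0.20, adjusted p = 0.00288), from 105 ± 39.9 to 54.1 ± 5.11 CPM (SD, n = 6 each). Coro1c, a coronin that binds actin filaments, fell by 0.71 (SE 0.16, adjusted p = 0.00494), and Tln1, talin, fell by 0.64 (SE 0.12, adjusted p = 0.000988). These are genes of the general actin cytoskeleton. Of the genes that mark smooth muscle, Myh11 had a log2 fold change of 0.14 (SE 0.11, adjusted p = 0.343), Cnn1, calponin, 0.16 (SE 0.14, adjusted p = 0.417) and Acta2, smooth muscle actin, -0.34 (SE 0.64, adjusted p = 0.724), and Tagln was under the filter. Actg2, also a smooth muscle marker, went the other way from Acta2, with means of 3.03 CPM in competent and 1.56 CPM in non-competent pools. Its PND40 pools had 3.39, 5.81 and 3.90 CPM, and every other pool had at most 3.06 CPM. It was not called. Actg1, cytoplasmic gamma-actin, was at 0.987 to 3.73 CPM with a log2 fold change of -0.65 (adjusted p = 0.119). Without the 3 pools high in granulosa markers the lower count was 2, Myh10 and Coro1c, and the calls of Actb and Tln1 were lost. Actb had -0.58 (SE 0.20, adjusted p = 0.0677) in that setting. Without PND40 replicate 3 Actb fell by 0.57, under 1.5-fold.

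In PND40 vs PND16 Large oocytes 0 of these 32 genes were called higher and 3 lower (9.38%), beside 2.34% higher and 1.32% lower over all genes. Actb had 76.1, 76.7 and 66.7 CPM in PND40 and 116, 117 and 118 CPM in PND16 Large and fell by 0.68 (SE 0.11, adjusted p = 0.00438). Coro1c fell by 0.71 (SE 0.12, adjusted p = 0.00438), from 110, 111 and 118 CPM to 62.3, 77.4 and 67.4 CPM. Pdlim5, a scaffold of actin filaments, fell by 0.78 (SE 0.11, adjusted p = 0.00209), from 42.8, 36.5 and 40.6 CPM to 24.7, 22.5 and 22.9 CPM. The groups did not overlap for any of them. In PND16 Small vs PND13 no gene of any of the 3 lists was called.

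**Figure D5:**
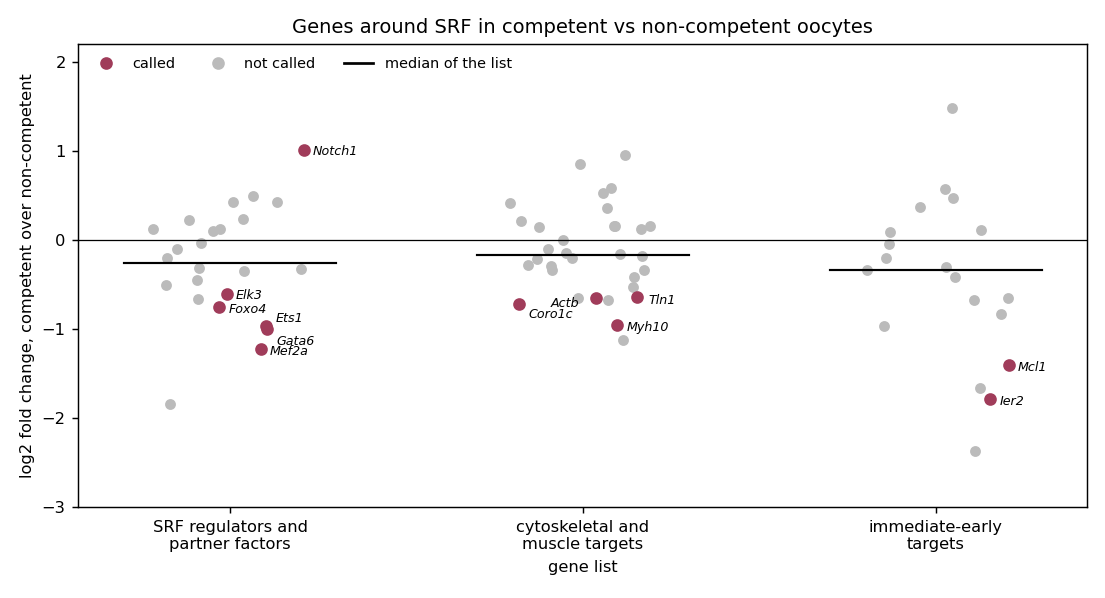
Log2 fold change in competent over non-competent oocytes of each tested gene of 3 lists around SRF, with called genes coloured and named and the list median as a line. The numbers called higher and lower are 1 and 5, 0 and 4, and 0 and 2 from left to right.

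Of the 24 immediate-early genes 19 were tested. In competent oocytes 0 were called higher and 2 lower (10.5%), near the shares of all genes (3.78% higher and 11.2% lower), and the median log2 fold change was -0.34. Mcl1, a survival factor of the BCL2 family, had 57.6, 62.7 and 70.2 CPM (lowest, median and highest) in non-competent and 19.9, 21.8 and 33.0 CPM in competent pools. It fell by 1.41 (SE 0.12, adjusted p = 1.20e-05), with no overlap. Ier2 fell by 1.79 (SE 0.53, adjusted p = 0.0194) at 0.205 to 4.83 CPM, and it was highest in PND16 Small replicate 2, without which the adjusted p was 0.0508 and the lower count 1. Without the 3 pools high in granulosa markers the log2 fold change of Ier2 was -1.18 (SE 0.61, adjusted p = 0.209). Egr1 had 18.2 to 37.5 CPM over all pools and a log2 fold change of -0.20 (SE 0.15, adjusted p = 0.319). Fos had 16.9 CPM in PND16 Small replicate 2 and 0.159 to 2.49 CPM in the other 11 pools, and its log2 fold change was -2.37 (SE 0.96, adjusted p = 0.0773). Without that pool the log2 fold change of Fos was -0.50, and DESeq2 on all pools called it (adjusted p = 0.0130). In PND40 vs PND16 Large 1 of the 19 genes was called higher (5.26%, beside 2.34% of all genes), the clock gene Per1, with 44.1, 47.5 and 49.7 CPM against 28.7, 31.1 and 29.5 CPM (log2 fold change 0.66, SE 0.11, adjusted p = 0.00417), and 0 were lower.

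Some of these genes carry a CArG box in the windows described above, and the sites are shown for 3 of them that were read in the oocytes. A box was found in 8 of 39 cytoskeletal and muscle genes with a window (20.5%), in 2 of 18 immediate-early genes (11.1%) and in 3 of 21 regulators and partners (14.3%), beside 1.81% of all genes. The lists were compiled by hand from genes known around SRF, so these shares are a description and not a test. Each site is given 5′ to 3′ on the gene's strand in GRCm38.p6, with 10 bases on either side and the box in capitals: Vcl (vinculin, chr14:20929161-20929190, plus), Actg1 (chr11:120348566-120348595, minus) and Zfp36 (an RNA-binding immediate-early protein, chr7:28379267-28379296, minus).
Vcl: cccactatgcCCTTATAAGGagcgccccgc
Actg1: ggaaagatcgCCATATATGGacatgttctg
Zfp36: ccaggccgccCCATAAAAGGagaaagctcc
Vcl had 135 to 165 CPM in non-competent and 107 to 131 CPM in competent pools, without overlap, and its log2 fold change of -0.30 (SE 0.071, adjusted p = 0.00613) was under 1.5-fold. Zfp36 had a log2 fold change of -0.34 (adjusted p = 0.463). Of the 13 genes with a box, 7 were tested, and none of these was called in competent vs non-competent oocytes. Over all genes tested 3.78% were called higher and 11.2% lower, and 7 genes are too few to be told apart from these shares. A match is a description of the letters and not evidence of binding.

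The nearest genes of the count tables on either side of Myocd on chromosome 11 were not called. Most genes were not called in competent vs non-competent oocytes, where 3.78% of genes tested were called higher and 11.2% lower. On the side of lower coordinates, Arhgap44, which lies 10636 bases away, had a log2 fold change of -0.35 (adjusted p = 0.240) in that comparison. Elac2, 171528 bases away, had 0.40 (adjusted p = 0.000599). On the other side, Gm12295, 7665 bases away, had 0.28 (adjusted p = 0.742) and Map2k4, 418255 bases away, had 0.18 (adjusted p = 0.0464). Elac2 and Map2k4 passed the p threshold with changes under 1.5-fold.

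The genes whose level over the 12 pools was most like that of each of the 4 genes were found by Pearson's r of log2 CPM among 11947 genes. For Myocd they were Gtf2a1 (r = 0.975), Ing3 (0.973), Zc3h7b (0.969), Zbed3 (0.964) and Mrpl18 (0.964). For Srf they were 1810013L24Rik (0.960), Copb1 (0.959), Muc15 (0.953), Lmbrd1 (0.948) and Imp3 (0.948). Ets1 was closest to Mkl1 (0.934), followed by Bcl2l2 (0.910), Cldn8 (0.902), Hist1h4b (0.893) and Adcy1 (0.893). Chd7 was closest to Mkl2 (0.946), followed by Dicer1 (0.939), Nexn (0.930), Crebbp (0.929) and D330045A20Rik (0.922). The pools share cohorts, libraries and depth, so each r mostly ranks genes by their pattern over 4 cohorts and is given without a test.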

How the data were processed

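RNA-Seq was performed by the authors on 12 pools of oocytes from CD-1 mice, with directional libraries made after depletion of ribosomal RNA. The submitters' processing notes name mm10, FastQC, STAR, HTSeq, DESeq2, DESeq and HOMER, with no versions or order, and the strand setting of the counting is not given in the sources used here. The authors deposited raw counts of reads on each of 24562 genes, and also log2 values, made from the counts by scaling each pool with its own size factor and adding 1 before taking the log2. The log2 values were used only as an alternative. Totals per pool were 17671193 to 27418358 counts. There were no molecular identifiers, and replicate pools differed by more than sampling noise (chi-square per gene 7.97 to 42.7).

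Cohorts and replicate numbers were taken from the sample labels. After a filter on low counts (edgeR's filterByExpr, minimum count 10) 13943 genes remained, and pools were scaled by TMM (factors 0.955 to 1.07) in R 4.3.3 with edgeR 4.0.16. A robust quasi-likelihood model of the 4 cohorts gave the 6 pairwise comparisons, and a model of 2 groups gave competent vs non-competent oocytes. These comparisons share pools. P-values were adjusted by Benjamini-Hochberg over all genes tested, and the study's criteria (adjusted p at most 0.05, at least 1.5-fold) defined a call. Standard errors are the log2 fold change over the square root of F. The models were tested on simulated data.

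The 4 genes, the 3 pathway lists (99 genes, compiled by hand) and the marker lists were chosen with earlier results of these data known. In each list, the text names the genes called with the largest changes in each direction (mean CPM at least 1), at most 3 in competent vs non-competent and at most 2 in PND40 vs PND16 Large and PND16 Small vs PND13 oocytes, and a set of genes named whatever their values (Elk1, Elk3, Elk4, the Mef2 genes, Scai, Acta2, Myh11, Tagln, Cnn1, Actb, Actg1, Fos and Egr1). Foxo4, Tln1, Vcl and Zfp36 were added after their values were seen. Likeness between genes was measured on log2 CPM with a prior count of 2. Coordinates and promoter windows are those of RefSeq's GRCm38.p6 tables, in which Mkl1 and Mkl2 matched as Mrtfa and Mrtfb, 3 of the 4 genes had a window, and exon lengths are from GENCODE M21. Alternatives were DESeq2 1.42.0, limma 3.58.1 on the log2 values, other scalings and filters, only the cohorts compared, no fold criterion, a replicate block, leaving out each pool, and, chosen after seeing the data, leaving out the 3 pools high in granulosa markers. Another list of genes is not reported here. Figures were drawn with matplotlib 3.10.9.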

Additional observations from a re-analysis of the deposited data

Results flagged for a closer look

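Single pools standing far from the other 5 pools of their competence group were looked for in 28 genes, the 4 described here and those named from the lists, which gave 56 groups of 6 pools. Chance marks about 1 in 20 such groups, and 4 were marked. Myocd was at 36.6 CPM in PND40 replicate 1, and the next competent pool had 20.6 CPM. Acta2 was at 2.67 CPM in PND16 Small replicate 3, and the next non-competent pool had 0.955 CPM. Fos was at 16.9 CPM in PND16 Small replicate 2, one of the pools high in granulosa markers (672 CPM in sum), and the next non-competent pool had 2.49 CPM. Ier2 was at 1.62 CPM in PND16 Large replicate 2, and the next competent pool had 0.597 CPM. Acta2 and Ier2 rest on few reads.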

How the results depend on the processing

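No fold change of Myocd, Srf, Mkl1 or Mkl2 in a tested comparison passed or lost the threshold under another scaling, filter or tool, and no called value changed sign under any setting tried. Over all settings the log2 fold change of Myocd in competent vs non-competent oocytes was 2.75 to 3.27, and that of Mkl1 in PND16 Large vs PND13 -1.04 to -0.81. With no fold criterion Srf counted as called in competent vs non-competent oocytes (0.24), PND40 vs PND13 (0.38) and PND40 vs PND16 Small (0.38). Mkl2 then counted as called lower in PND40 vs PND16 Small (-0.39). The changes in counts of called genes are given below, and their cause was not tested.

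In competent vs non-competent oocytes the regulators and partner factors (1 higher, 5 lower) gave 2 higher and 9 lower with no fold criterion, 3 lower with limma on the log2 values, 3 lower with the replicate block, and 0 and 1 without the 3 pools high in granulosa markers. Leaving out 1 pool gave 0 to 2 higher and 1 to 6 lower. The cytoskeletal and muscle genes (0 and 4) gave 7 lower with no fold criterion and 2 lower without the 3 pools. The immediate-early genes (0 and 2) gave 1 higher with limma, 1 lower without the 3 pools, and 0 to 1 higher and 1 to 3 lower without 1 pool.

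In PND40 vs PND16 Large the regulators (3 and 0) gave 5 higher with only the cohorts compared. The cytoskeletal and muscle genes (0 and 3) gave 2 higher and 5 lower with only the cohorts compared, and 0 to 1 higher without 1 pool. The immediate-early genes (1 and 0) gave 2 higher with DESeq2 or only the cohorts compared, 1 lower with DESeq2 and 3 lower with only the cohorts compared, and 0 to 1 lower without 1 pool. In PND16 Small vs PND13 the counts of 0 became 1 for regulators lower, cytoskeletal genes higher and immediate-early genes higher with DESeq2. Without 1 pool they were 0 to 1 for these 3 and for immediate-early genes lower.

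Over all genes, PND16 Small vs PND13 moved from 52 called to 361 with DESeq2, 25 with total-count scaling and 2 with only the cohorts compared. It moved to 129 with no fold criterion, 10 with the replicate block, and 4 (without PND13 replicate 3) to 817 (without PND16 Small replicate 1) without 1 pool. PND40 vs PND16 Large moved from 510 to 782 with DESeq2, 1081 with only the cohorts compared and 953 with no fold criterion, and to 246 to 305 without any 1 pool of either cohort. With no fold criterion the other counts were 3567 in place of 1858 (PND16 Large vs PND13), 4612 in place of 2637 (PND40 vs PND13), 1715 in place of 863 (PND16 Large vs PND16 Small), 4207 in place of 2395 (PND40 vs PND16 Small) and 4283 in place of 2087 (competent vs non-competent). Without the 3 pools PND13 keeps only replicate 2, so no counts are given for its comparisons in that setting. PND16 Large vs PND13 had 1189 without PND13 replicate 3 and 1154 without PND16 Large replicate 1, and PND16 Large vs PND16 Small had 475 with only the cohorts compared, 333 without PND16 Large replicate 1 and 466 without replicate 2. The replicate numbers did not pair the pools, as same-numbered pools of 2 cohorts had mean correlations of -0.25 to 0.040 in their deviations, so the block is not read as a weaker effect. Precision is limited by 3 pools a cohort, and for Myocd by 23 to 63 counts in each non-competent pool.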
